A study of Mus musculus with 6 samples.

Results

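The muscle miRNAs mmu-miR-1a-3p, mmu-miR-133a-3p, mmu-miR-133b-3p, mmu-miR-206-3p and mmu-miR-499-5p (the species prefix is left out from here on) were followed in the intestine of mice with experimental necrotizing enterocolitis (NEC) and of control mice. They were chosen by name, and all 5 were among the 604 miRNAs of the sequenced libraries. Small RNA was sequenced as 50 nt single-end reads from 3 NEC and 3 Control libraries of wild-type C57BL/6J pups. The NEC pups received Esbilac formula (33%, 40 μl) with PBS by gavage every 4 h for 96 h, and every 12 h they were exposed to hypoxia (nitrogen for 100 s) and then to cold (4 °C for 10 min). The Control pups, whose treatment label is PBS, stayed with the dam and had neither hypoxia nor cold stress. Whether the libraries are from different pups is not stated, and p-values then measure only how much these libraries vary, part of which may be technical. The libraries are of whole tissue, in which fewer cells of a type and less RNA per cell cannot be told apart.

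miR-1 and miR-133a are made together from the same transcripts and are best known from heart and skeletal muscle, where miR-1 favours differentiation and miR-133 favours proliferation of muscle precursors. They have also been described in smooth muscle, which forms the outer wall of the gut. miR-206 is typical of skeletal muscle and shares its seed, the part of a miRNA that pairs with its targets, with miR-1, and miR-133b is a near copy of miR-133a. miR-499 comes from an intron of a myosin heavy chain gene and is known from heart and slow skeletal muscle, like its relative miR-208b.

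The mature sequences are shown because the seed decides which members can share targets. The capitals mark the seed (bases 2 to 8), and the sequences and positions are those of RefSeq on GRCm38.p6. The set of sequences used here held 3 of the 5 members and 1 relative.
miR-206-3p: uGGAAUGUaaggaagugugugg
miR-133b-3p: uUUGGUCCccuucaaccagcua
miR-499-5p: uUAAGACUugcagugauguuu
miR-208b-3p: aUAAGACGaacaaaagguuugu
The seeds of miR-499-5p and miR-208b-3p had the same base at 6 of 7 positions. The seeds of miR-206-3p and miR-133b-3p matched at 1 of 7 positions, although these miRNAs are neighbours in the genome.

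miR-206-3p lies on chromosome 1 from 20679055 to 20679076 and miR-133b-3p from 20682834 to 20682855, both on the plus strand. In the GENCODE annotation of GRCm38 both hairpins are exonic in the lincRNA gene Gm28653, with 3686 bases between them. miR-499-5p lies on the plus strand of chromosome 2 from 155622893 to 155622913, in an intron of Myh7b. The hairpins Mir1a-1 (180389048 to 180389124) and Mir133a-2 (180398379 to 180398482) lie on the plus strand of chromosome 2, with 9254 bases between them. The mature miR-1a-3p and miR-133a-3p can each come from a second hairpin as well, Mir1a-2 and Mir133a-1, and the reads of the copies cannot be told apart.

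The deposited values are normalized and on a log2 scale, with no counts, so that the depth of each library is unknown and no counting interval is given. The median value of a library was 4.78 to 5.01. Neither the labels nor the methods name the transformation, and differences of low miRNAs may be understated by it. The 6 library codes in the labels form 2 series, which the labels do not explain. NEC replicate 1 and Control replicate 3 make up code series 2, the second, and NEC replicates 2 and 3 with Control replicates 1 and 2 make up code series 1, the first. All 8 listed markers of intestinal epithelium were in the table, with 18.9% to 28.0% of the back-transformed values of a library.

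miR-1a-3p was the most abundant member, at rank 44 to 72 of 604 over the libraries. miR-133a-3p followed at rank 137 to 179, miR-499-5p at rank 128 to 220, miR-206-3p at rank 320 to 380 and miR-133b-3p at rank 347 to 445. Together the 5 members made up 0.0965% to 0.199% of the back-transformed values of a library, and miR-1a-3p alone made up 77.8% to 89.3% of that sum. The smooth muscle and mesenchymal miR-143-3p, the most abundant miRNA of the table, lay above miR-1a-3p by 8.01 ± 0.61 (SD, n = 6) on the log2 scale. The order of miR-133a-3p and miR-499-5p was not stable. miR-499-5p was the higher one in both libraries of code series 2 and miR-133a-3p in all 4 libraries of code series 1. The difference of miR-133a-3p minus miR-499-5p averaged 0.65 ± 1.21 (SD, n = 6). miR-206-3p lay above miR-133b-3p in all 6 libraries, by 0.55 to 1.65.

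The comparison of NEC with Control asks whether the muscle miRNAs of the gut change in the model. None of them passed the test, and the NEC and Control values overlapped for each of the 5. Differences were tested with limma over 386 miRNAs with Benjamini-Hochberg adjustment over all of them. A miRNA was tested when 3 or more libraries had a log2 value of 3.32 or above, which is 10 after back-transformation. miR-1a-3p, miR-133a-3p, miR-206-3p and miR-499-5p reached this minimum in all 6 libraries, and miR-133b-3p in 1, so that 4 of the 5 were tested. At an adjusted p under 0.05 limma called 0 of the 4, against a background of 0% of all miRNAs tested, and at an unadjusted p under 0.05 it called 0 of 4, against a background of 2.85% (11 of 386). Values that did not overlap between NEC and Control were found for 0 of 5 members, against 9.84% of the miRNAs tested (4.92% with all NEC values above and 4.92% with all NEC values below the Control values). Of the 4 members tested, 2 had a higher and 2 a lower mean in NEC, with a median log2 difference of 0.016, beside a median of 0.0099 over all 386.

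**Figure D1:**
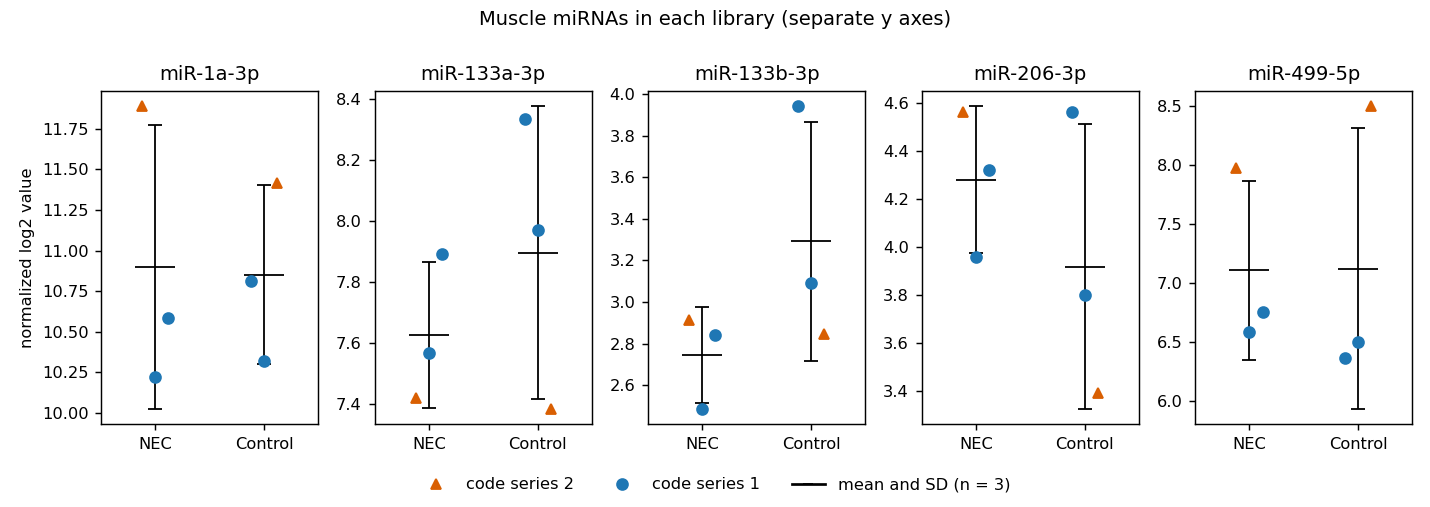
Normalized log2 values (y axis, a separate scale for each miRNA) of the 5 muscle miRNAs in the NEC and Control libraries. Points are libraries, triangles those of code series 2 and circles those of code series 1, and the black lines give the mean and SD (n = 3). NEC and Control overlap in every panel, while the triangles of miR-1a-3p (11.89 and 11.42) and miR-499-5p (7.97 and 8.49) lie above all circles.

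miR-1a-3p, the most abundant of the muscle miRNAs, had log2 values of 11.89, 10.22 and 10.59 in NEC replicates 1, 2 and 3, against 10.81, 10.32 and 11.42 in Control replicates 1, 2 and 3. The lowest and the highest value of all both belonged to NEC. The means were 10.90 ± 0.88 in NEC and 10.85 ± 0.55 in Control (SD, n = 3 each), which differed by 0.049 on the log2 scale (95% interval -1.10 to 1.20, standard error 0.49, limma adjusted p = 0.998). The interval spans changes of about 1 on the log2 scale in both directions. Without NEC replicate 1 the difference was -0.45, and without Control replicate 3 it was 0.33.

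miR-133a-3p, the partner of miR-1 on the same transcripts, had log2 values of 7.42, 7.57 and 7.89 in NEC and 8.33, 7.97 and 7.38 in Control. Both the highest values and the lowest value were Control. The log2 difference was -0.27 (95% interval -1.0 to 0.46, standard error 0.31, limma adjusted p = 0.998), and without Control replicate 1 it was -0.051. The libraries of the second code series differed by 0.038. In the first code series both NEC values lay below both Control values, and the difference there was -0.42.

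For miR-133b-3p, whose mature sequence is close to that of miR-133a-3p, the values were 2.91, 2.48 and 2.84 in NEC and 3.94, 3.09 and 2.85 in Control. The mean was lower in NEC, at 2.75 ± 0.23 against 3.29 ± 0.58 in Control (SD, n = 3 each), and the groups overlapped through NEC replicate 1 and Control replicate 3 (log2 difference -0.55, p = 0.2 in a two-sided exact permutation test, whose smallest p at this size is 0.1). The log2 difference was 0.068 within the second code series, against -0.85 within the first, and leaving out Control replicate 1 gave -0.22. Reads of miR-133a-3p and miR-133b-3p are hard to assign because the sequences are nearly identical, and the labels and methods do not state how they were assigned.

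miR-206-3p, the skeletal muscle relative of miR-1, had values of 4.56, 3.96 and 4.32 in NEC, against 4.56, 3.80 and 3.39 in Control. The highest NEC and the highest Control value were nearly equal, and Control replicate 3 was the lowest of all. The log2 difference was 0.36 (95% interval -0.47 to 1.20, standard error 0.36, limma adjusted p = 0.998). It was 1.17 within the second code series, against -0.042 within the first, and leaving out Control replicate 3 gave 0.099.

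miR-499-5p, the miRNA of the Myh7b intron, had values of 7.97, 6.58 and 6.76 in NEC and 6.37, 6.50 and 8.49 in Control. One library of each group stood above the other 4, and both were of code series 2. The log2 difference was -0.016 (95% interval -1.51 to 1.48, standard error 0.64, limma adjusted p = 0.998). The libraries of the second code series differed by -0.52. In the first, both NEC values lay above both Control values, by 0.24 on average. Without Control replicate 3 the difference was 0.67, and without NEC replicate 1 it was -0.45.

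**Figure D2:**
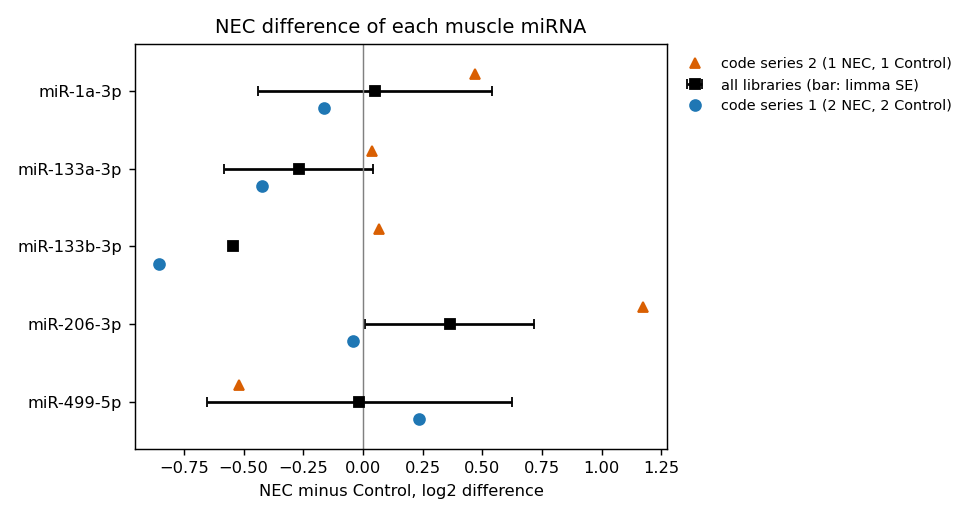
Log2 difference of NEC minus Control (x axis) for each muscle miRNA (y axis). Triangles are code series 2 (1 NEC and 1 Control library), squares all 6 libraries with the standard error from limma as bar (none for miR-133b-3p, which was below the minimum), and circles code series 1 (2 NEC and 2 Control libraries). The 2 code series lie on opposite sides of 0 for all 5 miRNAs, with 1.17 for miR-206-3p in code series 2. Some values are close to 0: 0.038 for miR-133a-3p and 0.068 for miR-133b-3p in code series 2, and -0.042 for miR-206-3p in code series 1. How many of all miRNAs change sign was not counted, so this is no result about the members.

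When limma also took account of the code series, the standard errors of the members became smaller, and again 0 of the 4 members had an unadjusted p under 0.05, against a background of 18.1% (70 of 386). The smallest of the 4 unadjusted p was 0.18, for miR-133a-3p (log2 difference -0.27, standard error 0.18, adjusted p = 0.431 from limma). Whether the NEC difference itself depended on the code series was tested with an interaction term. The largest interaction was that of miR-206-3p, with 1.21 (standard error 0.48, unadjusted p = 0.0339, adjusted p = 0.953 from limma). miR-499-5p had -0.76 (standard error 0.34, adjusted p = 0.953), and miR-1a-3p (0.63, standard error 0.42) and miR-133a-3p (0.46, standard error 0.39) had the same adjusted p. Code series 2 has 1 library in each group, so this test rests on very few libraries.

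Between the code series miR-499-5p, miR-1a-3p and miR-133a-3p differed, and miR-206-3p did not pass the test. This comparison asks how the members vary among libraries of one condition, since the labels name no biological factor behind the codes. In a limma model that also held the condition, 3 of the 4 members tested passed the adjusted threshold of 0.05. In code series 2 miR-499-5p and miR-1a-3p were higher and miR-133a-3p was lower. The background was 57.5% of all miRNAs (222 of 386), with 25.4% (98) higher and 32.1% (124) lower, so a count of 3 of 4 is no result about the members. That background was 126 calls without NEC replicate 1 and 136 without Control replicate 3, and shifting libraries by their median deviation turned it to 115 higher and 96 lower. The 3 members did not share a direction.

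miR-499-5p was higher in code series 2, at 7.97 in NEC replicate 1 and 8.49 in Control replicate 3, against 6.37 to 6.76 in the 4 libraries of code series 1. The log2 difference was 1.68 (standard error 0.20, adjusted p = 0.00064 from limma), which was rank 25 by size among the 386 miRNAs. miR-1a-3p was higher by 1.17 (standard error 0.23, adjusted p = 0.00399 from limma), with 11.89 and 11.42 in code series 2 against 10.22 to 10.81 in code series 1. Without NEC replicate 1 this difference was 0.85, with an adjusted p of 0.0546. miR-133a-3p was lower in code series 2, at 7.42 and 7.38 against 7.57 to 8.33 in code series 1 (log2 difference -0.54 ± 0.19, standard error, limma adjusted p = 0.0446). The call of miR-133a-3p did not hold in 8 of the 14 alternative settings, and with the libraries shifted by their median deviation the difference was -0.38 (adjusted p = 0.119). miR-206-3p did not pass, with -0.18 (standard error 0.32, adjusted p = 0.655), and neither the values of miR-206-3p (4.56 and 3.39 in code series 2, 3.80 to 4.56 in code series 1) nor those of miR-133b-3p (2.91 and 2.85 in code series 2, 2.48 to 3.94 in code series 1) parted the series. The median difference over all 386 miRNAs was -0.19.

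**Figure D3:**
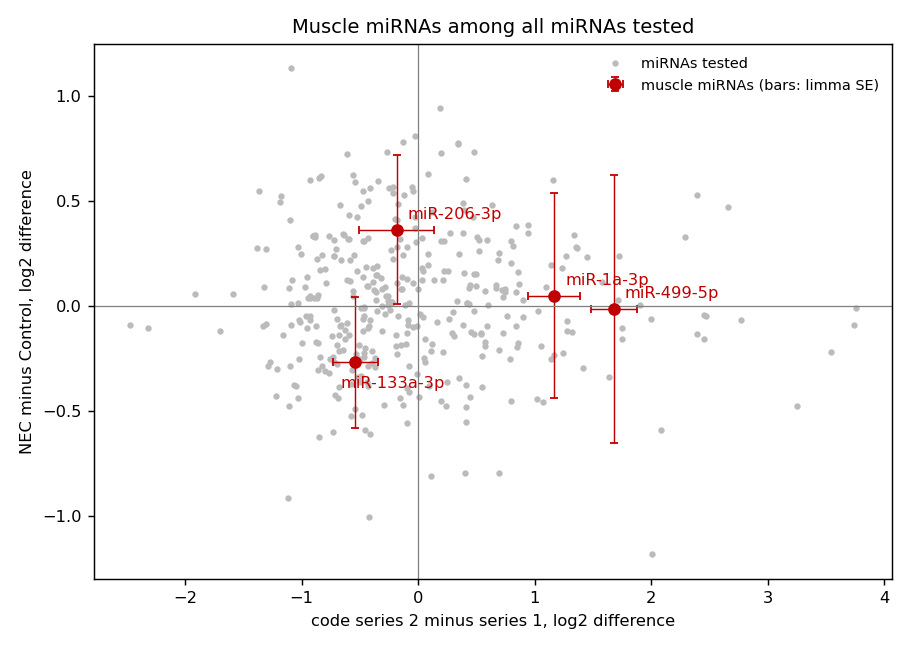
Log2 difference of code series 2 minus code series 1 (x axis) against the log2 difference of NEC minus Control (y axis) for the 386 miRNAs tested. Grey points are all miRNAs, and red points with standard errors from limma are the 4 muscle miRNAs tested. miR-499-5p (1.68) and miR-1a-3p (1.17) lie far to the right and near 0 on the y axis, while miR-133a-3p (-0.54) lies to the left.

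Of the 29 markers tested in the 8 lists of other cell types, 17 were called between the code series (58.6%), near the background of 57.5%, so these counts are no result about a cell type either. They stand here beside the differences of the members. The endothelial miR-126a-3p was higher in code series 2 by 0.60 (standard error 0.16, adjusted p = 0.0147 from limma) and miR-126a-5p by 2.77 (standard error 0.45, adjusted p = 0.00221). miR-126a-5p had the same value, 5.38, in NEC replicate 2 and Control replicate 2, both of code series 1. Both markers of the endothelial list passed. Their summed level was 15.45 to 15.67 in code series 2 and 14.87 to 15.12 in code series 1 on the log2 scale. Of 8 epithelial markers 5 were called higher and 1 lower in code series 2, and the summed level of the list was 19.01 to 19.18 in code series 2 and 18.27 to 18.72 in code series 1. Of the 4 smooth muscle miRNAs 1 was called higher and 1 lower. The lower one was miR-145a-5p (-0.68, standard error 0.17, adjusted p = 0.0118), while the difference of miR-143-3p was 0.047 (standard error 0.22). The 4 smooth muscle miRNAs summed to 18.92 to 18.96 in code series 2 and 18.64 to 19.42 in code series 1. Of the 6 mesenchymal markers 1 was called higher and 1 lower (median log2 difference 0.40), and the list summed to 12.61 to 12.65 in code series 2, above the 12.22 to 12.46 in code series 1. Of the 4 red cell markers tested 1 was called higher and 2 lower, and the summed levels overlapped, at 10.09 to 10.73 in code series 2 and 10.03 to 10.54 in code series 1. The neuron marker tested was not called, and the pancreas list had 0 markers tested. Of the 4 leukocyte markers tested 2 were called lower, and the list summed to 8.51 to 8.71 in code series 2 against 9.45 to 9.86 in code series 1. The part of these cell types in the difference of the muscle miRNAs was not tested.

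The relation between members within a library is not changed by a shift of the whole library. miR-1a-3p exceeded miR-133a-3p by 4.47 in NEC and 4.03 in Control libraries of code series 2, against 2.65 and 2.69 in NEC and 2.48 and 2.34 in Control libraries of code series 1. The gap between them was larger by 1.71 in code series 2, which restates their differences between the code series (1.17 and -0.54). How many of all pairs part the code series was not counted, so this is no result about the pair. Averaged over the groups the gap was 3.27 ± 1.04 in NEC and 2.95 ± 0.94 in Control (SD, n = 3 each, exact two-sided permutation test, p = 0.5). miR-133a-3p and miR-133b-3p kept a steadier distance, although their reads are hard to assign and may not be separate observations. It was 4.88 ± 0.32 in NEC and 4.60 ± 0.25 in Control (SD, n = 3 each, exact two-sided permutation test, p = 0.3). miR-1a-3p exceeded miR-206-3p by 6.62 ± 0.61 in NEC and 6.93 ± 0.96 in Control (SD, n = 3 each, exact two-sided permutation test, p = 0.7).

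The neighbours miR-206-3p and miR-133b-3p, a pair chosen after the values had been seen, differed from each other by more in NEC than in Control libraries, at the smallest p the design allows and not after adjustment. miR-206-3p lay above miR-133b-3p by 1.65, 1.47 and 1.48 in NEC replicates 1, 2 and 3, against 0.62, 0.71 and 0.55 in Control replicates 1, 2 and 3. The groups did not overlap, in either code series, and the spread within each was small (1.53 ± 0.10 in NEC and 0.62 ± 0.081 in Control, SD, n = 3 each). The difference of 0.91 had p = 0.1 in the exact two-sided permutation test, the smallest that 3 libraries against 3 allow, and p = 0.9 when adjusted over the 9 differences of this kind that were computed. Among all pairs of the 604 miRNAs, 9.63% did not overlap either, and of the 9 pairs computed here it was 1, a share near that background. Both miRNAs are low, and miR-133b-3p lay under the minimum for testing in 5 of 6 libraries.

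**Figure D4:**
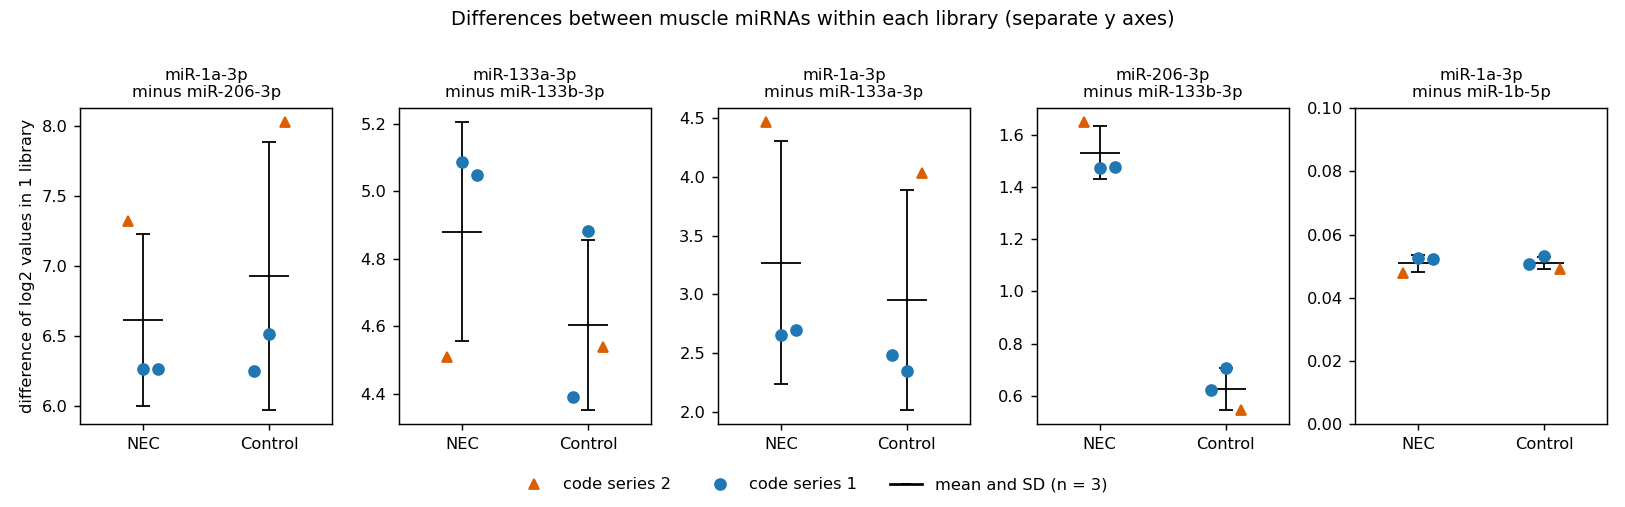
Difference between the log2 values of 2 muscle miRNAs in the same library (y axis, a separate scale for each pair) in NEC and Control. Triangles are libraries of code series 2, circles those of code series 1, and black lines the mean and SD (n = 3). For miR-206-3p minus miR-133b-3p the NEC libraries lie at 1.47 to 1.65 and the Control libraries at 0.55 to 0.71, and for miR-1a-3p minus miR-1b-5p all 6 lie close to 0.051.

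Of the 13 names listed as other arms and relatives of the members, 3 were in the table. miR-1b-5p had values of 11.84, 10.17 and 10.53 in NEC and 10.76, 10.26 and 11.37 in Control, almost those of miR-1a-3p. miR-1a-3p exceeded it by 0.051 ± 0.0021 (SD, n = 6) in every library. In the annotation the hairpin Mir1b overlaps the hairpin Mir1a-2 on the opposite strand. The values of miR-1b-5p are therefore not separate evidence beside those of miR-1a-3p, and the methods do not say whether counting used the strand.

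The other arm of the miR-133a hairpins, miR-133a-5p, was low, with 2.33, 1.50 and 1.92 in NEC and 1.46, 1.50 and 1.80 in Control. miR-208b-3p, which lies in an intron of Myh7, a heavy chain gene of heart and slow muscle, was lower still, with 1.29, 0.18 and 0.47 in NEC against 0.48, 0.18 and 1.51 in Control. Its highest values were in NEC replicate 1 and Control replicate 3, the same libraries in which miR-499-5p was highest. These libraries make up code series 2, in which 25.4% of all miRNAs tested were called higher. The match is therefore no result about miR-208b-3p and miR-499-5p. Both miR-133a-5p and miR-208b-3p lay under the minimum in all libraries and were not tested. For these miRNAs NEC replicate 2 and Control replicate 2 had identical values, as they did for 62 of the 604 miRNAs (within 1e-08). The endothelial miR-126a-5p, above the minimum in all libraries, also had 5.38 in both. The other 14 pairs of libraries had identical values for 0 miRNAs.

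The miRNAs whose pattern over the 6 libraries was most like that of the 4 members tested, taken as the mean of their centred values, were found by Pearson's r among 381 other miRNAs. This mean does not stand for every member. miR-499-5p and miR-1a-3p, with the largest differences between the code series, weigh most in it, while miR-133a-3p had r = -0.506 with miR-1a-3p and r = -0.796 with miR-499-5p. The miRNAs most like the mean were miR-369-3p (r = 0.961), miR-152-3p (r = 0.943), miR-322-3p (r = 0.940), miR-1193-3p (r = 0.925) and miR-126a-5p (r = 0.925). These are descriptions over 6 libraries, which share the split into code series. With the mean of each code series taken out, r was 0.962 for miR-369-3p and 0.733 to 0.836 for the other 4. miR-369-3p was highest in the libraries in which miR-1a-3p was highest, with 6.42 in NEC replicate 1 and 6.10 in Control replicate 3, against 5.01 to 5.49 in the other libraries. Taken one by one, the members had different closest miRNAs, named after their values were seen. miR-369-3p was closest to miR-1a-3p (r = 0.995), miR-500-3p to miR-133a-3p (r = 0.982), miR-16-5p to miR-133b-3p (r = 0.998), miR-203b-5p to miR-206-3p (r = 0.959) and let-7a-1-3p to miR-499-5p (r = 0.996).

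Among the members themselves, miR-133a-3p and miR-133b-3p had r = 0.795 over the 6 libraries and r = 0.979 with the series means taken out. Reads of this pair are hard to assign, so its values may not be separate observations. miR-1a-3p and miR-206-3p had r = 0.167 and, with the series means taken out, r = 0.921. miR-1a-3p and miR-499-5p had r = 0.840, which became -0.614 with the series means taken out.

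Between NEC and Control no marker list of another cell type had a miRNA past the adjusted p. At an unadjusted p under 0.05 only miR-150-5p of the leukocyte list passed (log2 difference -1.0, standard error 0.36, limma adjusted p = 0.998). That is 1 of the 29 markers tested, against a background of 2.85% (11 of 386), so it is no result about leukocytes. Of the 4 smooth muscle miRNAs tested, 1 had a higher and 3 a lower mean in NEC (median log2 difference -0.17), with -0.25 (standard error 0.27) for miR-143-3p and -0.39 (standard error 0.33) for miR-145a-5p. For mesenchyme it was 4 higher and 2 lower of 6 (median 0.012), with 0.17 (standard error 0.24) for miR-199a-5p and 0.012 (standard error 0.27) for miR-199a-3p. For epithelium, with miR-215-5p and miR-192-5p leading, it was 3 higher and 5 lower of 8 (median -0.075). For the 2 endothelial miRNAs it was 1 and 1. Of the red cell markers tested, 4 of 4 had a higher mean in NEC (median 0.34), with 0.35 (standard error 0.30) for miR-451a and 0.33 (standard error 0.38) for miR-486b-5p. Over all miRNAs tested, 200 of 386 had a higher mean in NEC. The related miR-486a-5p had 0.33 as well, so the 4 are not 4 separate observations. Of the leukocyte markers, 1 of 4 had a higher mean and 3 a lower one (median -0.11), with miR-150-5p and miR-342-3p the most abundant. Of the pancreas list only miR-217-5p was in the table, with at most 1.27, and of the neuron list only miR-128-3p reached the minimum (log2 difference 0.41, standard error 0.27). The other neuron marker among the most abundant, miR-9-5p, had 5.68 in NEC replicate 1 and 1.36 to 1.45 in the other libraries.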

How the data were processed

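Small RNA of mouse intestine was sequenced from 3 NEC and 3 Control samples. Normalized log2 values of 604 miRNAs were deposited by the authors in 1 table. Columns were assigned through the library codes, and 0 value columns stayed unassigned. The submitters' processing notes name the build mm10. Which aligner, counting tool and transformation were used was not given in the sources used here, and the table holds no counts, so depth is unknown.

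Deposited values entered limma (version 3.58.1, R version 4.3.3) without further scaling, in two-sided tests with no covariate and Benjamini-Hochberg adjustment over the 386 miRNAs that had 3.32 or more on the log2 scale in 3 or more libraries. Single values were compared with exact two-sided permutation tests. Correlations are Pearson's r and carry no test. The limma step was tested on simulated data with independent noise and no code series, which checks the calculation and not its power in these libraries.

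The members, the lists and the tests were chosen with earlier results of these data known. The text names the 5 members, their relatives in the table, the most abundant miRNAs of each cell type list and the 5 miRNAs most like the members. The cell type lists cover smooth muscle, mesenchyme, epithelium, red cells, leukocytes, endothelium, pancreas and neurons. The alternatives were 3 shifts of the libraries, other minimums (none, or 5.64 on the log2 scale), added constants of 1 and 5, a robust fit, the replicate number as a block, the code series and leaving out each library. No multi-copy or strand assignment of reads could be checked. The mRNA, PCR and cell experiments were not analysed here.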

Additional observations from a re-analysis of the deposited data

Results flagged for a closer look

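For 3 members both NEC libraries of the first code series lay on one side of both Control libraries. In the second code series the single NEC library lay on the other side of its Control library. How many of all miRNAs do so was not counted, so 3 of the 5 is no result about the members. For miR-133a-3p the log2 difference was 0.038 within the second code series, against -0.42 within the first. miR-133b-3p had 0.068 within the second, against -0.85 within the first, and the contrast of these values was not tested. miR-499-5p had -0.52 within the second, against 0.24 within the first. The interaction had an adjusted p of 0.953 in limma for miR-133a-3p and for miR-499-5p. With 1 library of each group, the second code series has no replicate.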

How the results depend on the processing

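For NEC against Control, limma called 0 miRNAs with all libraries and under each alternative except code series 1 alone, where it called 2. None of the muscle miRNAs passed under any alternative. The log2 difference changed sign with code series 1 alone for miR-1a-3p (-0.16), miR-206-3p (-0.042) and miR-499-5p (0.24), and for miR-499-5p also when libraries were shifted by their total without the 10 most abundant miRNAs (0.042). Leaving out each library in turn gave -0.45 to 0.39 for miR-1a-3p, -0.53 to -0.051 for miR-133a-3p, -0.77 to -0.22 for miR-133b-3p, 0.099 to 0.69 for miR-206-3p and -0.45 to 0.67 for miR-499-5p.

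Between code series 2 and 1, leaving out each library gave 126 to 212 calls, with 126 without NEC replicate 1 and 136 without Control replicate 3, a setting with fewer libraries. Of the 222 calls 98 were higher. Shifts by the median deviation gave 115 higher and 96 lower, and by the total without the 10 most abundant miRNAs 113 higher and 78 lower. The log2 difference of miR-133a-3p did not pass under the median shift (-0.38), the shift by that total (-0.33), no filter (-0.54, adjusted p = 0.0567) and no condition term (-0.54, adjusted p = 0.0685), and it was -0.77 to -0.31 when each library was left out. Without a library the difference was 0.85 to 1.48 for miR-1a-3p, -0.67 to 0.25 for miR-133b-3p, -0.79 to 0.43 for miR-206-3p and 1.30 to 2.06 for miR-499-5p, which passed in every setting. For miR-206-3p it was 0.024 under the shift by the total. The cause of these changes was not tested.

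The replicate number did not pair the libraries, with correlations of deviations of -0.689, 0.734 and -0.778. With it as a block, limma called 0 miRNAs and the difference of miR-1a-3p was 0.049 (standard error 0.45). The gap between miR-206-3p and miR-133b-3p differed by 0.85 to 0.95 without each library and by 0.83 after adding 1. Both the pair and these alternatives were chosen after seeing the data, so the narrow range adds no evidence for the gap. The stricter minimum left no value for miR-133b-3p and miR-206-3p.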
